A study of Mus musculus with 6 samples.

Results

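Smooth muscle contractile markers are the 10 genes Acta2, Actg2, Tagln, Cnn1, Myl9, Mylk, Myh11, Tpm1, Smtn and Lmod1, out of 19057 named genes on an Illumina mouse bead array, read here by 25 of its 45281 probes. The probes were all those whose gene symbol in the platform annotation was a member. The genes were chosen from their role in smooth muscle and selected on intensities already seen in these clones: the difference between FEAT and control clones, the disagreement between probes and the lower values of clone FEAT 20. Those 3 patterns are therefore a description, and the counts of calls that the fit over all probes gives for them are printed beside the share over all probes and support nothing. Of the 25 probes, 15 were above the background limit of the array in all 6 clones and 10 in none, among them every probe of Cnn1, Myh11 and Lmod1.

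Smooth muscle contracts when calcium activates myosin light chain kinase, which phosphorylates the regulatory light chain of myosin and lets myosin pull on actin filaments. The smooth muscle actins, tropomyosin, transgelin, calponin, smoothelin and leiomodin form, bundle or regulate those filaments. Many of their genes are driven by serum response factor (SRF) with its cofactors of the myocardin family, and fibroblasts that turn into myofibroblasts switch on part of the same set, with alpha smooth muscle actin as the usual marker.

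Total RNA came from NIH3T3, a permanently growing fibroblast line of NIH Swiss mouse embryos, in 6 stably transfected clones. The FEAT group held the clones FEAT-3, FEAT-15 and FEAT-20. Their plasmid, pEF-DEST51-FEAT, expresses the human FEAT coding sequence, also called METTL13, a methyltransferase, from the elongation factor 1alpha promoter. They were selected for 7 days in 10 µg/ml blasticidin S and picked for high FEAT protein. The control group held ΔccdB-1, ΔccdB-2 and ΔccdB-3, called control 1, control 2 and control 3 here, which carried that vector with its ccdB gene deleted and no FEAT. The sources used here do not say whether the controls passed the same drug selection. Each clone is a single cell line read on 1 array, so the spread within a group is that between clones. Mean intensity over all probes ran from 616 to 735 between arrays. Levels below are the deposited scaled intensities, in which every array has a mean of 680 and background is still included. The background limit lay between 94.2 and 109 on this scale. Log2 differences, FEAT minus control, come from background-corrected and quantile-normalized values, so they can exceed the ratio of 2 printed levels. In bulk RNA, fewer cells making a transcript and less transcript per cell cannot be told apart.

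The cells read as fibroblasts at the marker genes, with part of the pericyte markers also above background. All 7 fibroblast markers, among them Vim, Col1a1, Col1a2 and Pdgfra, were above the limit on all 6 arrays. Of the 7 striated muscle markers on the array, 4 were above it on none, including Myod1 and Ckm. Acta1 was above it on all 6 arrays, and Myog and Tnni2 on some. The summed level of the 7 ran from 640 to 720 in control and from 676 to 1176 in FEAT clones. The top value was in FEAT 3, where the skeletal actin gene Acta1 read 593 against 123 to 223 in control clones. Of the 6 pericyte markers, Cspg4, Pdgfrb and Mcam were above the limit on all 6 arrays, Kcnj8 on some, and Rgs5 and Abcc9 on none. The 6 pericyte markers summed to 1038 to 1328 in control and 982 to 1351 in FEAT clones. Cdh1 was the 1 epithelial and Lyz2 the 1 leukocyte marker above the limit on all arrays, and no endothelial or adipocyte marker was. The part of Acta1 or of these markers in the results below was not tested.

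Acta2 encodes alpha smooth muscle actin, a filament actin of vascular smooth muscle and myofibroblasts. Its promoter is shown because SRF acts through the CArG box, a pair of C bases, 6 bases that are A or T, and a pair of G bases. The RefSeq promoter table (GRCm38.p6) held 7 of the 10 members, and Actg2, Tagln and Myh11 were not matched. The 250 bases before the transcript start were searched for the CArG box and for the same pattern with 1 G or C among the 6 inner bases. Both patterns read the same on either strand, and no site can count under both. The Acta2 window, chr19:34255374-34255623 on the minus strand, held 2 matches of the second form. The Myl9 window, chr2:156775214-156775463 on the plus strand, held 1 match of each form. Matches are in capitals.
Acta2: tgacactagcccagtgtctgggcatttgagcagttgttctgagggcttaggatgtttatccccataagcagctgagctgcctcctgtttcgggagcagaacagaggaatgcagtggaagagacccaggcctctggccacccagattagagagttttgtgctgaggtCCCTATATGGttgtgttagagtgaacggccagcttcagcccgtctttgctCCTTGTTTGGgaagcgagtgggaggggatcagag
Myl9: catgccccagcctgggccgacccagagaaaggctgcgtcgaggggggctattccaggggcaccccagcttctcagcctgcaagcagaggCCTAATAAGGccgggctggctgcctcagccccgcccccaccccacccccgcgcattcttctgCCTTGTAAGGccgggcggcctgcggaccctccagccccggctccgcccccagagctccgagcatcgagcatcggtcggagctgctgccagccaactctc

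In Acta2, CCCTATATGG began 84 bases and CCTTGTTTGG 34 bases before the start. In Myl9, CCTAATAAGG, with only A and T inside, began 161 bases before the start and CCTTGTAAGG began 99 bases before it. Of all 32851 promoter windows of this length, 1.47% held the CArG box and 7.24% the form with 1 inner G or C. The windows of Cnn1, Mylk, Tpm1, Smtn and Lmod1 held neither form. A match is a description of letters in the window and not of binding.

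Acta2 had 6 probes, and they fell into 3 kinds. On the probe ILMN_2923445 it read 10905, 10575 and 10932 in control 1, control 2 and control 3, and 27382, 24569 and 15782 in FEAT 3, FEAT 15 and FEAT 20. The controls lay within 0.07 log2 units of each other on this probe, all 3 FEAT clones lay above them, and FEAT 20 was the lowest FEAT clone. The FEAT mean was 22578 ± 6051 and the control mean 10804 ± 199 (SD, n = 3), which is 1.05 on the log2 scale or 2.07-fold.

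On ILMN_2710354 the Acta2 levels were 13894, 15015 and 14181 in the controls and 32621, 30819 and 20357 in FEAT 3, FEAT 15 and FEAT 20. On ILMN_2710353 they were 8506, 9638 and 8370 in the controls and 20469, 19781 and 12519 in the FEAT clones. On both probes all FEAT clones again lay above all controls and FEAT 20 was the lowest FEAT clone, with log2 differences of 0.96 and 0.99. FEAT 20 stood 0.56, 0.53 and 0.53 log2 units above the control mean on the 3 probes, whereas FEAT 3 stood 1.33, 1.14 and 1.25 above it.

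The Acta2 probe with the highest mean, ILMN_2693895, gave another picture. It read 32938.5, 37911 and 35773 in the controls and 37843, 31251 and 30308 in FEAT 3, FEAT 15 and FEAT 20. The groups overlapped, and the log2 difference was -0.09. This probe is annotated to the same transcript record, NM_007392, as the 3 probes above. The highest value of any probe ran from 42718 to 54675 between arrays on the same scale, and the part of this upper end in the discordance was not tested. The remaining Acta2 probes, ILMN_1237242 and ILMN_1236619, read between 62.5 and 87.1 and were above the limit in no clone.

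Actg2 encodes gamma smooth muscle actin, the filament actin typical of gut and bladder muscle. Its single probe read 300.2, 171 and 346 in control 1, control 2 and control 3, and 2577, 2243 and 550 in FEAT 3, FEAT 15 and FEAT 20. Of the tested members it had the largest log2 difference, 2.69 or 6.45-fold, and also the widest spread in both groups. Its controls spanned 1.25 log2 units, with control 2 lowest. FEAT 20 stood 1.17 units above the control mean, against 3.60 in FEAT 3 and 3.29 in FEAT 15, and its level exceeded that of every control.

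**Figure D1:**
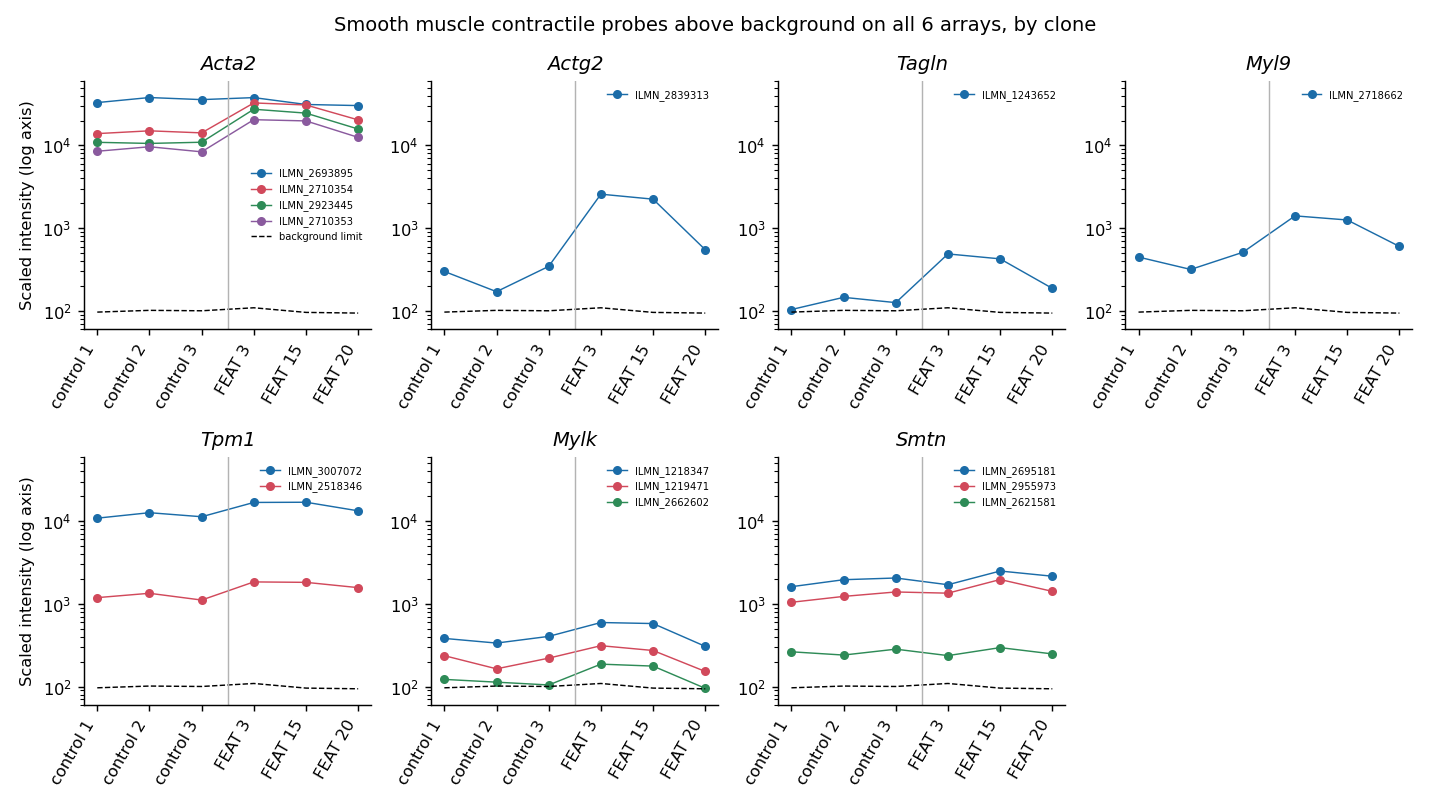
Scaled intensity (log axis) of each probe above background on all 6 arrays, by clone, with 1 line per probe, 1 panel per gene and the background limit dashed. On Actg2, Tagln, Myl9 and 3 Acta2 probes FEAT 3 and FEAT 15 sit highest and FEAT 20 lies between them and the controls, while the Acta2 probe ILMN_2693895 stays between 30308 and 37911.

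Among proteins that bind actin, Tagln encodes transgelin (SM22 alpha), an early marker of smooth muscle that bundles actin. Its probe ILMN_1243652 read 104, 146 and 126 in the controls and 489, 426 and 187 in FEAT 3, FEAT 15 and FEAT 20. All FEAT clones lay above all controls, and FEAT 20 was nearer to the controls than to the other FEAT clones on the log2 scale, 0.83 above the control mean against 2.47 and 2.16. The log2 difference was 1.82 or 3.53-fold, from 125 ± 21.0 to 367 ± 159 (SD, n = 3 each). The controls lay close to the background limit, so this size depends on the background correction. Without the correction it was 1.45. A second probe with the same accession, ILMN_1215145, read 63.6 to 72.3 and was above the limit in no clone.

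Tpm1 encodes alpha tropomyosin, which lies along the actin filament and is made in many cell types. On ILMN_3007072 it read 10862, 12646 and 11300 in the controls and 16821, 16919 and 13320 in FEAT 3, FEAT 15 and FEAT 20. The log2 difference was 0.46, with the FEAT clones all above the controls and FEAT 20 lowest among them. On ILMN_2518346 the levels were 1190, 1343 and 1113 against 1843, 1821 and 1572, a log2 difference of 0.50. FEAT 20 was again the lowest FEAT clone, and its level exceeded that of every control on both probes. The third probe, ILMN_1237801, was above the limit in no clone.

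Smtn encodes smoothelin, a protein of contractile smooth muscle filaments. Its probe ILMN_2695181 read 1614, 1960 and 2055 in the controls and 1704, 2496 and 2160 in FEAT 3, FEAT 15 and FEAT 20, so the groups overlapped. The log2 differences of its 3 probes above background were 0.13, 0.34 and -0.03. On all 3 of these probes FEAT 15 was the highest clone. In scaled intensity FEAT 3 lay within or below the range of the controls. On the normalized log2 scale FEAT 3 on ILMN_2955973, at 10.409, was just above the highest control, at 10.407. The last Smtn probe, ILMN_2484535, had FEAT clones at 88.1 to 95.4 and controls at 78.2 to 87.3 without overlap, but was above the limit on no array.

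Cnn1 encodes calponin, an actin-bound inhibitor of the myosin motor, and Lmod1 leiomodin, which starts actin filaments in smooth muscle. Cnn1 read 71.1 to 76.2 in control and 76.9 to 83.1 in FEAT clones, and Lmod1 72.8 to 90.6 and 72.0 to 94.7. Neither was above the background limit in any clone, so no fold is given for them.

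Of the myosin genes, Myl9 encodes the regulatory light chain of smooth muscle and nonmuscle myosin. Its probe read 448, 317 and 512 in control 1, control 2 and control 3, and 1409, 1257 and 602 in FEAT 3, FEAT 15 and FEAT 20. The FEAT clones all lay above the controls, with FEAT 20 0.53 log2 units above the control mean and FEAT 3 and FEAT 15 at 1.91 and 1.65. The log2 difference was 1.36 or 2.57-fold, from 426 ± 99.0 to 1089 ± 429 (SD, n = 3 each).

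Mylk encodes myosin light chain kinase, the enzyme that phosphorylates the Myl9 product. On ILMN_1218347 it read 383, 336 and 405 in the controls and 596, 579 and 307 in FEAT 3, FEAT 15 and FEAT 20. On ILMN_1219471 the levels were 237, 164 and 221 against 313, 273 and 153, and on ILMN_2662602 they were 122, 113 and 105 against 187, 177 and 95.5. On all 3 probes FEAT 3 and FEAT 15 lay above every control and FEAT 20 lay below every control. The log2 differences of the groups were 0.36, 0.25 and 0.53, and FEAT 20 stood at -0.35, -0.52 and -0.33 from the control mean. Without FEAT 3 they were 0.15, -0.02 and 0.28, without FEAT 15 0.22, 0.13 and 0.34, and without FEAT 20 0.71, 0.63 and 0.96. The value of 0.25 was also 0.39 without control 1 and 0.04 without control 2. The probe ILMN_2553561, annotated to the cDNA clone AK044527, was above the limit in no clone.

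Myh11 encodes the smooth muscle myosin heavy chain, the most specific marker of the mature lineage. Its 2 probes read 65.7 to 73.4 and 61.9 to 70.8 in control clones, and 65.1 to 80.1 and 66.3 to 75.8 in FEAT clones. Both were above the limit in no clone.

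**Figure D2:**
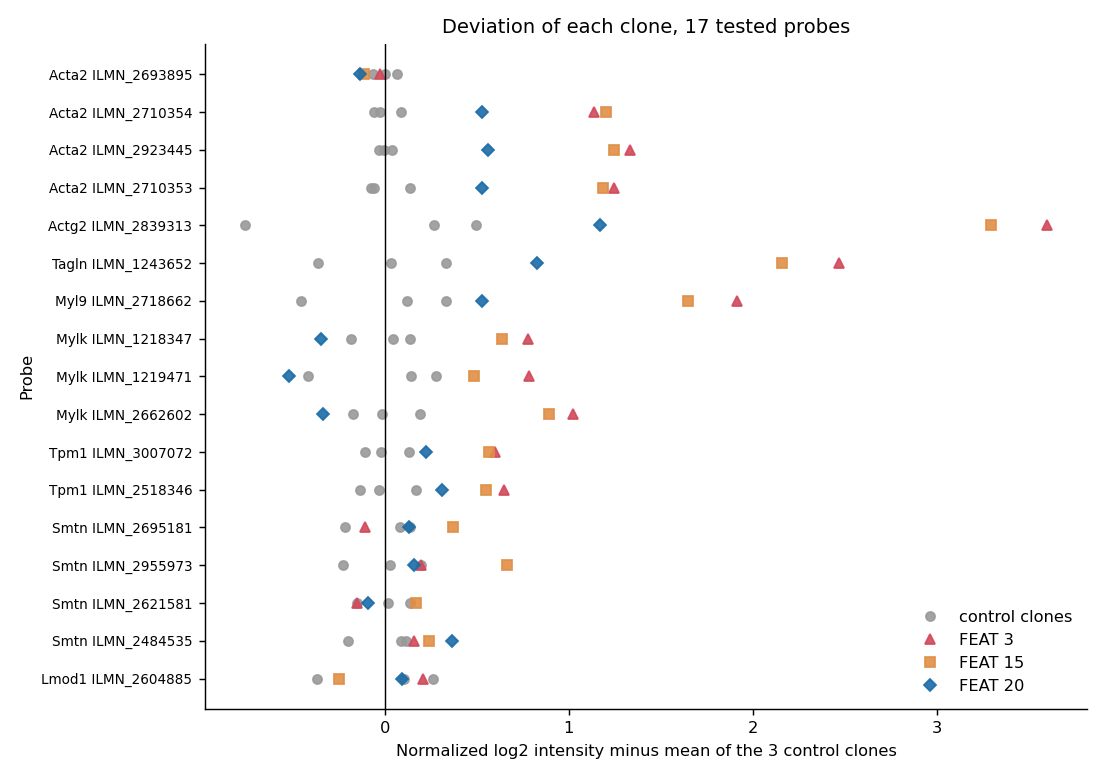
Normalized log2 intensity of each clone minus the mean of the 3 control clones, for the 17 tested probes, with controls as grey circles, FEAT 3 as triangles, FEAT 15 as squares and FEAT 20 as diamonds. FEAT 20 lies right of all controls at Actg2, Tagln, Myl9, Tpm1, 3 Acta2 probes and the Smtn probe ILMN_2484535. It lies left of all controls at the 3 Mylk probes and the Acta2 probe ILMN_2693895.

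Over the whole array, 27169 probes passed the filter on low values and were tested with limma. Of the members, 17 of 25 probes and 8 of 10 genes were among them, since the probes of Cnn1 and Myh11 fell below the filter. None of the 17 passed an adjusted p of 0.05, as against 0.169% of all probes tested, and 8 of the 17 had an unadjusted p under 0.05, as against 9.1%. FEAT clones lay above controls without overlap on 9 of the 17, as against 7.22% of all probes, and below them on 0 (6.89% of all probes). Of these 9, 4 differed at least 2-fold (0.169% of all probes). The contrast was used to propose the genes, so nothing is read from these shares. The median log2 difference over the 8 tested genes, with 1 probe per gene, was 0.41, beside 0.01 over all 13309 genes tested. Acta2 enters this median through its probe with the highest mean, the discordant one at -0.09. With the mean over the tested probes of each gene the median was 0.60.

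FEAT 20 was the lowest FEAT clone on 13 of the 17 probes, as against 32.8% of all probes, and lay at least 1 log2 unit below the mean of FEAT 3 and FEAT 15 on 6 of them, as against 0.482%. These 6 were the probes of Actg2, Tagln, Myl9 and Mylk. The median distance over the 8 genes was -0.70, beside 0.01 over all genes. It was -0.21 with all probes kept, which brings in Cnn1 and Myh11, and -1.05 with the top 40% of probes. Without FEAT 20, limma called 6 of the member probes, namely those of Actg2, Tagln and Myl9 and the 3 higher ones of Acta2, out of 60 calls over all probes. FEAT 20 was singled out for its low values in these genes, so this count is a description too.

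Genes around the contractile set were taken from 4 lists, which overlap at Vcl, Tpm2 and Myh9. Of 23 actin cytoskeleton targets, 22 were on the array and tested, 2 of these were called higher and 0 lower, as against 0.128% of all genes called higher and 0.0827% lower. Unadjusted p under 0.05 was reached by 7 of the 22, as against 10.2% of all genes, and the median log2 difference of the list was 0.21. Ccn2, connective tissue growth factor, rose with a log2 difference of 1.19 (SE 0.15, limma, adjusted p = 0.0206), and its call in these clones was known before the list was made. Nuak2, a kinase related to AMPK, rose by 0.88 (SE 0.14, limma, adjusted p = 0.0341). It read 1068, 979 and 1042 in control 1, control 2 and control 3, and 1807, 1732 and 2190 in FEAT 3, FEAT 15 and FEAT 20. Its groups did not overlap, and its highest clone was FEAT 20.

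Both calls depended on the clones, while the differences stayed between 1.07 and 1.30 for Ccn2 and between 0.80 and 0.96 for Nuak2 with a clone left out. Ccn2 was not called without control 1, control 3 or FEAT 3 (limma, adjusted p = 0.154, 0.0509 and 0.0721). Nuak2 was called without control 2 (adjusted p = 0.0444) but not without control 1, control 3, FEAT 3, FEAT 15 or FEAT 20 (adjusted p = 0.187, 0.146, 0.123, 0.0517 and 0.0775). Ankrd1, a cardiac ankyrin repeat protein, read 651, 1614 and 716 in the controls and 2676, 2243 and 3503 in FEAT 3, FEAT 15 and FEAT 20. Its groups did not overlap, FEAT 20 was again the highest clone, and the log2 difference of 1.63 did not pass (adjusted p = 0.0927, but 7.81e-04 without control 2 and 0.0485 with median scaling). The matricellular gene Ccn1 had a log2 difference of 0.66 (adjusted p = 0.176).

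Of 22 other smooth muscle genes, 21 were on the array and 14 were tested. Of these, 5 had an unadjusted p under 0.05 (10.2% of all genes), and limma called 0 of the 14 (0.21% of all genes). Their median log2 difference was 0.24, 11 of the 14 were positive, and 5 had no overlap with FEAT higher, as against 7.99% of all genes. Fhl1, a LIM domain protein of muscle, read 889, 1349 and 1280 in the controls and 4622, 1967 and 1763 in FEAT 3, FEAT 15 and FEAT 20, a log2 difference of 1.12 (adjusted p = 0.296). The intermediate filament gene Synm differed by 0.45, the focal adhesion gene Vcl by 0.44 and the LIM protein gene Pdlim7 by 0.41 (adjusted p = 0.359, 0.397 and 0.409). The other Synm probes differed by 0.44, -0.02 and 0.13. FEAT 20 was the highest clone for Vcl, at 7039 beside 6418 and 6069 in the other FEAT clones. Des, which encodes the muscle intermediate filament desmin, read 130 ± 18.2 in control and 121 ± 10.8 in FEAT clones (SD, n = 3 each).

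The isoform counterparts are the nonmuscle and striated relatives of the members. Of 26 such genes, 24 were on the array and 16 were tested, with a median log2 difference of 0.13. Limma called 0 of the 16, as against 0.21% of all genes, and 2 had an unadjusted p under 0.05, as against 10.2%. Actb, cytoplasmic beta actin, differed by 0.01, and the nonmuscle myosin genes Myh9 and Myh10 by 0.22 and -0.06. The 4 with the smallest unadjusted p were Mylk2, a skeletal muscle light chain kinase, at 0.53, the calponin gene Cnn2 at 0.28, the beta tropomyosin gene Tpm2 at 0.38 and Acta1 at 0.86 (adjusted p = 0.508, 0.549, 0.587 and 0.609). Mylk2 was above background on 1 of 3 control arrays, and another tested probe of it differed by 0.18. The other probe of Cnn2 differed by 0.43, and the groups did not overlap on either Cnn2 probe. Tpm2 read 3583, 3216 and 3680 in the controls and 5442, 5108 and 3479 in FEAT 3, FEAT 15 and FEAT 20, so that FEAT 20 lay within the control range. Its other probes differed by 0.11 and 0.43.

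Among SRF and its regulators, 22 of 23 genes were on the array and 18 were tested, with a median log2 difference of 0.03. Limma called 0 of the 18, as against 0.21% of all genes, and 4 had an unadjusted p under 0.05, as against 10.2%. Srf itself read 1088, 1015 and 1225 in the controls and 1595, 1211 and 1604 in FEAT 3, FEAT 15 and FEAT 20 on one probe, a log2 difference of 0.38 (limma, adjusted p = 0.514), and differed by 0.02 on its other probe. Limk2, a kinase that inactivates cofilin, differed by 0.38 and 0.14 on its tested probes, and Csrp2, a LIM protein of smooth muscle, by -0.62 (adjusted p = 0.483). Lmcd1 was above background on no array. Over the 4 lists, the median distance of FEAT 20 from the other FEAT clones was -0.10 for other smooth muscle genes, -0.19 for isoform counterparts, -0.06 for SRF regulators and -0.27 for actin cytoskeleton targets.

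**Figure D3:**
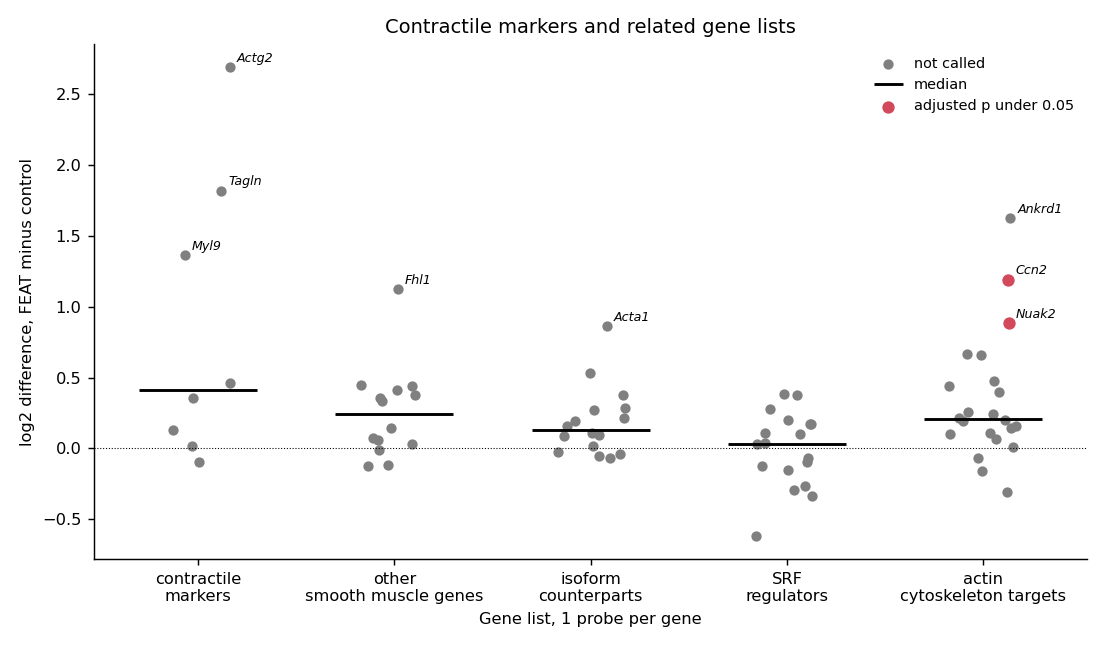
Log2 difference, FEAT minus control, of each tested gene of the contractile markers and the 4 related lists, 1 probe per gene, with the median of each list as a bar and called genes in red. The called genes are Ccn2 at 1.19 and Nuak2 at 0.88, and the medians are 0.41 for the markers and 0.24, 0.13, 0.03 and 0.21 for the lists from left to right.

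The mean profile of the 8 tested members, each centred on its own mean, was -0.47, -0.55 and -0.42 in control 1, control 2 and control 3, and 0.85, 0.69 and -0.10 in FEAT 3, FEAT 15 and FEAT 20. It was compared with 319 other tested genes above background on at least 3 arrays and with a log2 SD over clones of at least 0.5. The 8 with the most similar profile over the 6 clones were Adam12, Hes1, Foxs1, Phldb2, Osmr, Mustn1, Nr1d1 and Tmem181a. Pearson's r with the profile was 0.989 for Adam12, a metalloprotease, 0.985 for the Notch target Hes1 and 0.938 for Tmem181a. Adam12 and Tmem181a were above the background limit on 0 of 3 control arrays and all 3 FEAT arrays. These 2 genes thus met the array limit only through the group in which they are high. Their order among the controls is not measured. All points come from the same 6 arrays, and in all 8 genes FEAT 3 and FEAT 15 were the highest clones. Mustn1, a small nuclear protein of muscle and skeleton, read 1615, 1173 and 1453 in the controls and 3083, 3724 and 1947 in FEAT 3, FEAT 15 and FEAT 20. Hes1 read 424, 315 and 375 in the controls and 1220, 1118 and 618 in the same FEAT clones. In both genes FEAT 20 lay between the controls and the other FEAT clones, as for Tagln and Myl9. The 8 genes were picked for likeness to the member profile, so these orders follow from the choice.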

How the data were processed

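Per the labels' protocols, RNeasy Mini RNA was amplified with Illumina TotalPrep and labelled with Cy3. The submitters' processing notes name BeadStudio. The authors deposited linear probe intensities per array, with background included, and a value table of the same intensities multiplied by 1 factor per array (0.925 to 1.10). The factors were found by comparing both. Printed levels come from that table. The sources used here give neither slide nor detection p.

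With R 4.3.3 and limma 3.58.1, per-array intensities were corrected with normexp (offset 16), quantile normalized and put on log2. The top 60% of probes by mean were tested with lmFit and eBayes, two-sided, with Benjamini-Hochberg adjustment over all 27169 probes and calls at 0.05. The background limit was each array's mode of log2 intensity plus 3 SDs of the values below it. Each gene was represented by its probe of highest mean. With 3 against 3 clones the smallest two-sided exact permutation p is 0.1. The steps were tested on simulated data.

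Probe names came from the platform annotation, which gave 34885 probes 1 gene. Probe sequences were not used here. Members, lists and tests were chosen with earlier results of these data known. Besides all members, called genes, up to 4 genes per list by unadjusted p and the 8 most similar profiles were named by rule, and Actb, Myh9, Myh10 and Des after their values were seen. Clones share 1 replicate number, so no pairing was used. Alternatives covered background correction, scaling, filter, variance prior, probe rule and leaving out each clone.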

Additional observations from a re-analysis of the deposited data

How the results depend on the processing

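The log2 differences of the 17 tested member probes moved by over 1.5 times or changed sign in 8 of 117 values under other scalings, filters and variance priors, all of them for Lmod1 or the dim or near-zero Smtn probes ILMN_2484535 and ILMN_2621581. With a clone left out this was so in 29 of 102 values, for Mylk, Smtn, Lmod1 and the Acta2 probe ILMN_2693895. In 7 of these the sign changed, 3 each for Lmod1 and the Smtn probe ILMN_2621581 and 1 for the Mylk probe ILMN_1219471. The count of member probes called, 0, became 1 with median scaling (Tagln) and 1 with an intensity trend and robust prior (Acta2), and ran from 0 to 6 with a clone left out, 6 being without FEAT 20. The count without overlap was 8 with the top 40% of probes and ran from 9 to 13 with a clone left out. Groups with a clone left out separate more easily. Calls over all probes numbered 52 with median scaling, 67 with the intensity trend and robust prior and 60 without FEAT 20. The share of all probes without overlap was not computed for these settings. Nothing is read from the counts of member probes. The median log2 difference of member genes ran from 0.316 to 0.645 with a clone left out and was 0.29 with no filter and 0.60 with the mean over probes of a gene. The median distance of FEAT 20 from the other FEAT clones was -0.21 with no filter and -1.05 with the top 40% of probes, where the genes included differ, was -0.85 with the mean over probes of a gene, and ran from -0.75 to -0.66 with a clone left out. The count of related genes called, 2, ran from 0 to 3 with a clone left out: 0 without control 1, control 3 or FEAT 3. Over all probes, 46 calls became 0 without control 1 and 153 without control 2, and their cause was not tested. No paired analysis was possible because the groups share only 1 clone number. The 10 member probes not above background limit what can be said of Cnn1, Myh11 and Lmod1, and no bead-level error was used here.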
